A study of Homo sapiens and Mus musculus with 12 samples.

Results

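The messenger RNAs of 10 receptor tyrosine kinases were followed through polysome profiling of 2 melanoma cell lines. The receptors are EGFR, ERBB2, ERBB3, PDGFRA, PDGFRB, AXL, MET, IGF1R, INSR and FGFR1, a list of genes known from work on drug tolerance. The list was taken by name, and it was chosen with earlier results of these data known. The receptors were matched by symbol in capital letters. All 10 are among the 16782 genes listed for A375, a human melanoma cell line. The other line, Yumm1.7, comes from a mouse melanoma, and its table lists 12711 genes, 9 of these receptors among them; Erbb3 was not analysed in Yumm1.7.

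In polysome profiling, a sucrose gradient separates mRNAs by how many ribosomes sit on them. Each line was profiled in a state labelled S and a state labelled P. Per the series description the states are drug-tolerant persister cells, which outlive a drug without stable resistance, and parental cells; the labels name no drug, dose or time, and give no key to S and P. Both lines are labelled as melanoma cells from skin. For every state, RNA was sequenced as input (taken ahead of the gradient), as monosomes (the peak of single ribosomes with the lighter material above it) and as polysomes (the bottom of the gradient). This makes 12 libraries, with 1 per group. No difference below could therefore be set against a spread between replicates, and no test across replicates was made. The input, monosome and polysome libraries of a state are different fractions, not replicates of each other.

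Receptor tyrosine kinases are membrane proteins that bind a growth factor outside the cell, pair up, and phosphorylate tyrosines that recruit adaptors. These adaptors switch on the RAS-ERK and PI3K-AKT pathways. In melanomas driven by mutant BRAF, a higher level of receptors such as EGFR, PDGFRB, ERBB3, AXL or MET is a well known route by which cells outlive drugs against BRAF and MEK.

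Levels are TPM, the read density of a gene scaled to 1000000 per library, so they can be compared between genes within a library. Read depth cannot be recovered from TPM, so it is unknown here and no counting error can be given. TPM is a share of a library and does not show how much RNA a fraction held. Differences are given as log2(TPM + 1), S minus P or polysome minus monosome, relative to the median gene of the comparison, and were counted from 2-fold upwards. Adding 1 TPM makes the differences of low genes look smaller. Genes whose 6 libraries averaged 1 TPM or more were compared, 12638 in A375 and 10492 in Yumm1.7. Of the receptors, 8 of 10 passed this filter in A375 and 7 of 9 in Yumm1.7; EGFR and PDGFRA passed in neither line. The median gene that was subtracted lay at -0.20, 0.04 and -0.21 for S minus P in A375 input, monosome and polysome libraries, and at -0.94, -0.21 and -1.53 in Yumm1.7. Where every S value is said to lie above or below every P value, TPM was ranked over unlike fractions without subtracting the median gene. Such a ranking is a description and no test.

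The listed genes made up 66.6% to 90.1% of the TPM total in the A375 libraries and 84.5% to 94.4% in the Yumm1.7 libraries. Mitochondrially encoded RNA took 9.15% to 35.0% of the total in A375 S and 2.23% to 28.2% in A375 P, and 19.1% to 21.5% in Yumm1.7 S and 1.9% to 16.1% in Yumm1.7 P. Between 965 and 1581 genes were listed at 0 in the Yumm1.7 S libraries, against 276 to 336 in P. Of 10 melanocyte lineage markers, 7 were listed in A375, with a summed level of 308 to 577 TPM in S and 146 to 387 TPM in P. In Yumm1.7, 4 were listed, and their sum was 1.34 to 3.23 TPM in S and 5.09 to 7.09 TPM in P, with Pmel at 0 in the S input and S monosome libraries and Mlana at 0 in the S input and P monosome libraries. Mitf, a transcription factor of the lineage, made up most of the P sum, with 0.571 TPM in S input and 4.76 TPM in P input, and Rab27a was at 0 in all 3 P libraries and at 0.375 to 1.25 TPM in S. Yumm1.7 thus had only a few TPM of the melanocyte markers listed.

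A375 receptor mRNA was mostly ERBB3 in both states. It made up 72.2%, 82.3% and 71.3% of the summed TPM of the 10 receptors in the S input, monosome and polysome libraries, against 58.5%, 71.7% and 59.9% in P. Yumm1.7 receptor mRNA was mostly Axl, with 66.9%, 59.98% and 61.8% of the sum in S and 69.5%, 67.0% and 72.1% in P. Second place went to different receptors. In A375 input it was MET in S and IGF1R in P, and in Yumm1.7 input Pdgfrb in S and Fgfr1 in P. The summed level of the receptors in input was 315 TPM in S and 207 TPM in P in A375. In Yumm1.7 input it was 89.6 TPM in S and 196 TPM in P, where the median gene was itself at -0.94. The A375 sums were 327 TPM in S and 112 TPM in P in monosomes, and 288 and 277 TPM in polysomes. In Yumm1.7 they were 120 TPM in S and 145 TPM in P in monosomes, and 83.3 and 365 TPM in polysomes, with the median gene at -0.21 and -1.53. Without ERBB3, the A375 input sums were close, at 87.5 TPM in S and 85.7 TPM in P.

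**Figure D1:**
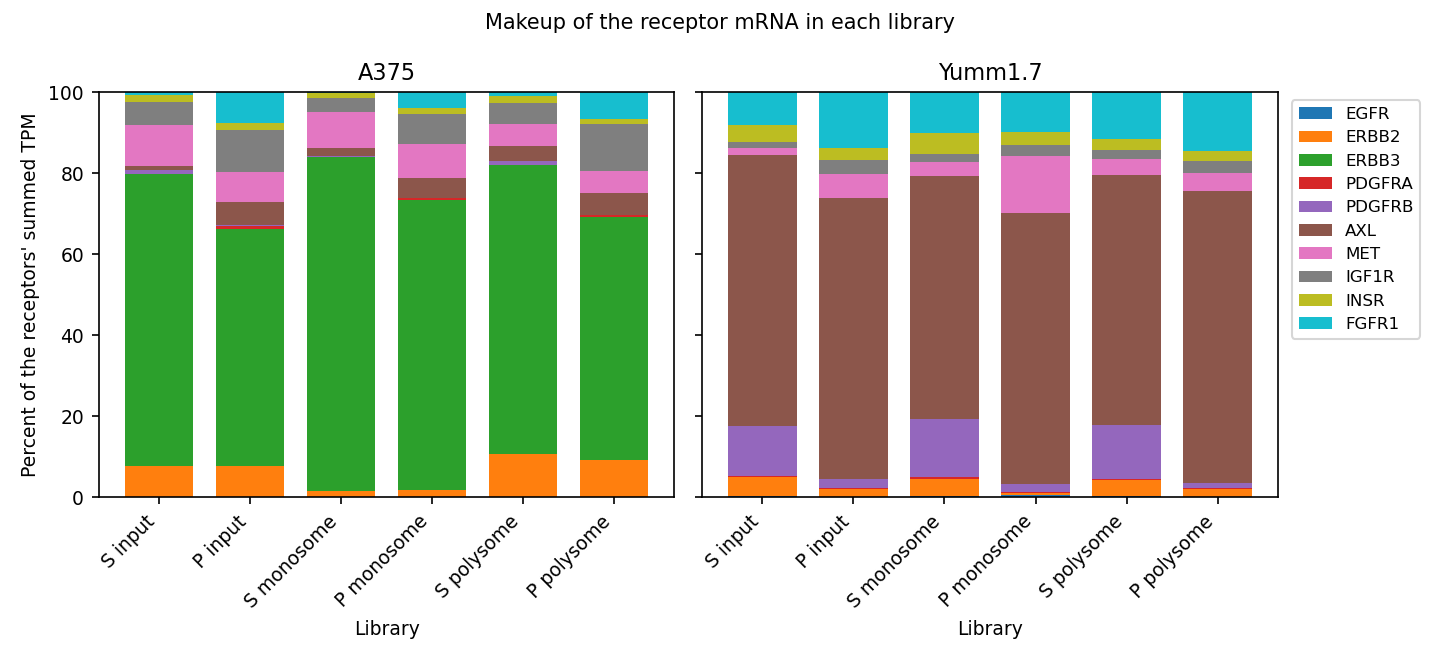
Share of each receptor in the summed TPM of the listed receptors (vertical axis, percent) in each library (horizontal axis, S left of P) of A375 and Yumm1.7. ERBB3 fills most of every A375 bar and Axl most of every Yumm1.7 bar, and the Pdgfrb share in Yumm1.7 is 12.4% in S input and 2.19% in P input.

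Relative to the median gene, 3 of the 8 receptors compared were at least 2-fold higher in A375 S input RNA, where 15.6% of all genes compared were, and 2 were at least 2-fold lower, where 16.2% of all genes were. As deposited, without subtracting the median gene, 1 was higher and 2 were lower. Their median was 0.83, beside 0 for all genes compared by construction. In the monosome libraries 3 were higher (11.7% of all genes) and 1 was lower (13.2%), and in the polysome libraries 1 was higher (16.5%) and 1 was lower (15.6%). As deposited, 1 was higher and 2 were lower in polysomes. In Yumm1.7 S input RNA, 2 of 7 were higher (23.1% of all genes) and 1 was lower (22.3%), or 1 higher and 4 lower as deposited. The Yumm1.7 monosome libraries had 2 higher (25.4%) and 1 lower (24.0%), and the polysome libraries 1 higher (24.1%) and 0 lower (22.5%). As deposited, 1 was higher and 5 were lower in Yumm1.7 polysomes. The median gene was itself at -1.53 in that comparison and at -0.94 in Yumm1.7 input, so lower values as deposited are not particular to the receptors. No share of all genes was computed for counts as deposited, here or below. With 7 or 8 receptors these counts are too small to be set apart from the shares of all genes, and the results lie in the single receptors.

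**Figure D2:**
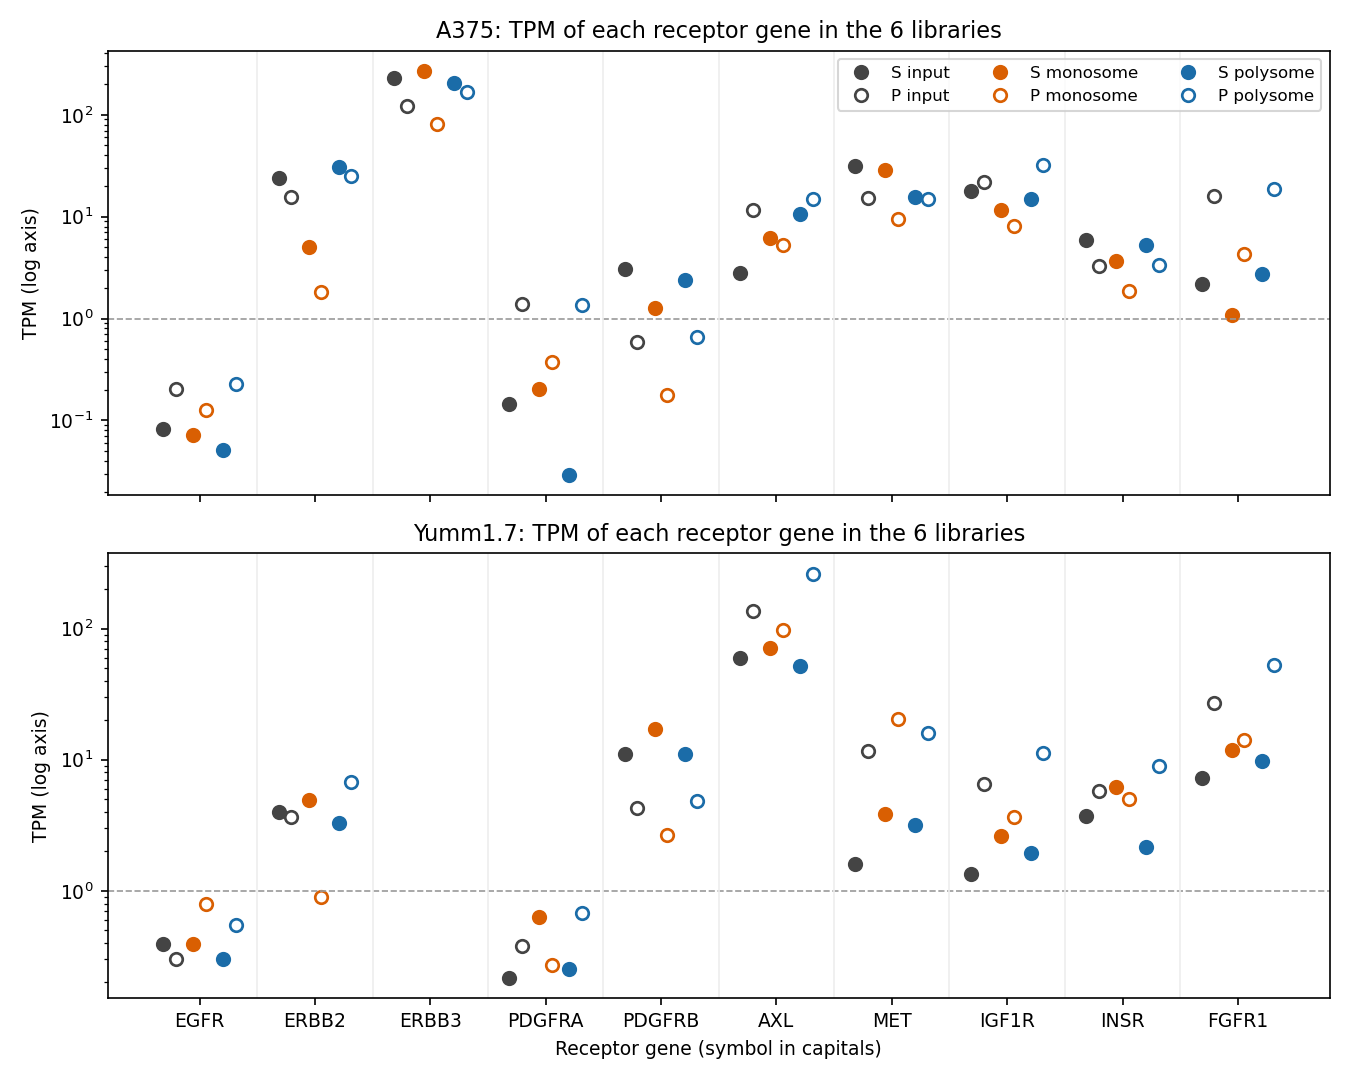
TPM (log axis) of the 10 receptor genes (horizontal axis) in the 6 libraries of A375 (top) and Yumm1.7 (bottom); filled circles are S, open circles P, colours mark input, monosome and polysome, and the dashed line is 1 TPM. In both lines the filled PDGFRB circles lie above the open ones, and EGFR lies below the dashed line in every library.

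Among the ERBB receptors, EGFR, the receptor of epidermal growth factor, was barely detected in either line. A375 S had 0.0832, 0.0716 and 0.0514 TPM of it in the input, monosome and polysome libraries, against 0.202, 0.126 and 0.226 TPM in P. Yumm1.7 S had 0.394, 0.391 and 0.305 TPM, against 0.302, 0.796 and 0.544 TPM in P. Every one of these values is under 1 TPM, too low for a fold change to be read, and the rank of EGFR in A375 input was 15602 of 16782 genes in S and 15500 in P.

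ERBB3 lies on chromosome 12 (56076799 to 56103505, plus strand, GRCh38) and encodes a receptor for neuregulins with little kinase activity of its own, which signals as a partner of ERBB2 or EGFR. It had 227, 269 and 205 TPM in the A375 S input, monosome and polysome libraries, against 121, 80.6 and 166 TPM in P. Every S value exceeded every P value, and relative to the median gene the log2 difference was 1.10 in input, 1.69 in monosomes and 0.52 in polysomes. The input difference was 0.90 as deposited, just under 2-fold. In S input ERBB3 was the 483rd highest of all listed genes, and in P input the 1140th.

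ERBB2, the partner receptor with no known ligand of its own, had 24.0, 5.05 and 30.9 TPM in A375 S and 15.6, 1.83 and 25.2 TPM in A375 P. Its differences were 0.78, 1.06 and 0.49, all above the median gene and past 2-fold in the monosome libraries. In Yumm1.7, Erbb2 had 4.01, 4.97 and 3.28 TPM in S, against 3.68, 0.896 and 6.80 TPM in P. The Yumm1.7 input levels were nearly alike, and the difference of 1.04 relative to the median gene was 0.10 as deposited. In polysomes the sign itself turned, from 0.67 relative to the median gene to -0.87 as deposited.

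PDGFRB, the receptor of platelet-derived growth factor B and a marker gene of pericytes and fibroblasts, lies on chromosome 5 (150113837 to 150155872, minus strand, GRCh38). Of the receptors compared in both lines, it stood above the median gene by at least 2-fold in the most comparisons of S with P, 2 of 3 in A375 and 3 of 3 in Yumm1.7. Yumm1.7 S had 11.1, 17.2 and 11 TPM in the input, monosome and polysome libraries, against 4.29, 2.65 and 4.82 TPM in P. Every S value exceeded every P value, and the differences were 2.13, 2.53 and 2.58 relative to the median gene and 1.19, 2.32 and 1.04 as deposited. A375 S had 3.08, 1.26 and 2.41 TPM, against 0.583, 0.176 and 0.660 TPM in P. Here too every S value exceeded every P value, at a level that was low in both states. The A375 differences were 1.57, 0.90 and 1.25. The monosome value depends on the pseudocount at these levels and was 2.25 with 0.1 TPM added in place of 1 TPM.

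Markers of other cells that make PDGFRB also differed between the Yumm1.7 states. Of 14 smooth muscle and pericyte markers, 8 were listed, with a sum of 896 to 1755 TPM in S and 22.9 to 81.5 TPM in P. These 8 are the smooth muscle genes Acta2, Actg2, Cnn1, Des, Lmod1, Myh11, Smtn and Tagln. The pericyte markers Rgs5, Cspg4, Notch3, Mcam, Kcnj8 and Abcc9 were not listed in Yumm1.7, so the sum does not describe pericyte genes. Acta2, smooth muscle actin, made up most of the S sum, with 603 TPM in S input and 5.97 TPM in P input. Smtn, smoothelin, made up most of the P sum and was lower in S, with 12.2 TPM in S input and 48.95 TPM in P input, whereas Myh11 and Des, defining genes of mature muscle, stayed under 1 TPM in all 6 libraries. Of 12 fibroblast markers, 10 were listed, with a sum of 439.7 TPM in S and 260.1 TPM in P in input, 897 and 192 TPM in monosomes, and 431 and 436 TPM in polysomes. Col3a1, a collagen gene, had 204 TPM in S input and 25.4 TPM in P input, while Pdpn, podoplanin, went the other way with 67.3 and 214 TPM and made up most of each P sum. The part of these markers in the Pdgfrb result was not tested. In bulk RNA, fewer cells of a type and less RNA per cell cannot be told apart. In A375, 5 fibroblast markers summed to 94.3 to 299.7 TPM in S and 17.2 to 81.3 TPM in P, mostly from MMP2, and 9 smooth muscle and pericyte markers to 161 to 610.1 TPM in S and 85.7 to 609.7 TPM in P, mostly from MCAM, which melanoma cells also make. The other marker lists differed in level. Endothelial markers (2 listed in A375, 1 in Yumm1.7) summed to 0.458 to 0.903 TPM in A375 S and 0.702 to 1.54 TPM in A375 P, and to at most 0.224 TPM in Yumm1.7 S and 2.0 TPM in Yumm1.7 P. Leukocyte markers (2 listed in each line) summed to 1.04 to 4.06 TPM in A375 S and 0.986 to 3.68 TPM in A375 P, and to 0.356 to 0.849 TPM in Yumm1.7 S and 8.70 to 15.2 TPM in Yumm1.7 P. Keratinocyte markers (4 listed in each line) summed to 114 to 161 TPM in A375 S and 104 to 117 TPM in A375 P, and to 11.2 to 22.6 TPM in Yumm1.7 S and 8.59 to 26.3 TPM in Yumm1.7 P. Of the 10 keratinocyte markers, only 2 averaged 1 TPM or more in each line, so these sums come from few genes.

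PDGFRA, the sister receptor, was low in both lines and did not follow PDGFRB. A375 S had 0.146, 0.205 and 0.0291 TPM in the 3 kinds of library, against 1.38, 0.375 and 1.35 TPM in P. Each S value lay below the P value of its own kind of library, the opposite of PDGFRB, though at levels at which no fold is given. Yumm1.7 had 0.218, 0.630 and 0.253 TPM in S and 0.383, 0.271 and 0.679 TPM in P, with no common direction.

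The 250 bases before the RefSeq start of PDGFRB, MET and AXL are shown because these receptors differed past 2-fold between the states in A375 input RNA; ERBB3 and FGFR1 also did and are not shown. They read 5′ to 3′ in the direction of the gene, from the RefSeq promoter table (GRCh38.p14), and capitals mark the GC box GGGCGG on either strand. PDGFRB is chr5:150155846-150156095 (minus strand), MET is chr7:116671946-116672195 (plus strand) and AXL is chr19:41218973-41219222 (plus strand).
PDGFRB: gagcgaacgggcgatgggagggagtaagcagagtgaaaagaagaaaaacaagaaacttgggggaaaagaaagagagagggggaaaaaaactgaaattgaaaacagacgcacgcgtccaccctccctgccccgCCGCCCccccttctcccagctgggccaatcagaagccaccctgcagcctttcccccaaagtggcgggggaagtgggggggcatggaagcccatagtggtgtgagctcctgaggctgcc
MET: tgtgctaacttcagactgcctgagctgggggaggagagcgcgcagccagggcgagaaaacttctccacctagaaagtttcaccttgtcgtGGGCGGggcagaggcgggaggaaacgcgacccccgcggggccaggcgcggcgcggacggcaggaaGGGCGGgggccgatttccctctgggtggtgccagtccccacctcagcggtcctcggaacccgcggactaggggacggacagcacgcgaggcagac
AXL: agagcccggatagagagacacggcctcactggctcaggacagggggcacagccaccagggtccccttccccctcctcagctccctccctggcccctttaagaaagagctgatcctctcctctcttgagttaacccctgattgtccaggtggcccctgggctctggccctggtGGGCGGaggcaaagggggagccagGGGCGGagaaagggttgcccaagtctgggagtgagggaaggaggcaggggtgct

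In these windows the GC box occurs once in PDGFRB and 2 times each in MET and AXL, and 42.3% of the 27305 promoter windows of this length in the table hold it. Also searched on both strands, with no match in these 3 windows, were the AP-1 motif TGANTCA (in 6.6% of windows), the TEAD motif GGAATG (11.9%), the FOXO motif GTAAACA (2.98%), the E-box CACGTG (6.49%), the M-box CATGTG (9.54%) and the SOX motif ACAAAG (13.7%). The GC content was 58.4% in PDGFRB, 68.4% in MET and 64.4% in AXL, against a median of 58.0% over all windows. A match or its absence describes letters in these windows.

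AXL, the receptor of GAS6, is a marker of the dedifferentiated, drug-tolerant state of melanoma cells and lies on chromosome 19 (41219203 to 41261766, plus strand, GRCh38). A375 S had 2.81, 6.18 and 10.5 TPM in the input, monosome and polysome libraries, against 11.7, 5.33 and 14.8 TPM in P. The difference was -1.54 in input but 0.14 in monosomes and -0.25 in polysomes, so the level was lower in S past 2-fold in input, lower within 2-fold in polysomes, and slightly higher in S in monosomes. Yumm1.7 S had 59.9, 71.7 and 51.5 TPM, against 136, 97.2 and 263 TPM in P. Every Yumm1.7 S value lay below every P value, with as deposited differences of -1.17, -0.43 and -2.33. Relative to the median gene, which was lower in S itself, they were -0.24, -0.22 and -0.80, all within 2-fold. Axl remained the receptor with the highest TPM in all 6 Yumm1.7 libraries.

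MET, the receptor of hepatocyte growth factor, lies on chromosome 7 (116672390 to 116798386, plus strand, GRCh38) and differed in opposite directions in the 2 lines. A375 S had 31.4, 28.7 and 15.7 TPM in the 3 kinds of library, against 15.3, 9.59 and 14.9 TPM in P. Every S value exceeded every P value, in polysomes by little. The differences were 1.19 in input and 1.45 in monosomes, both above 2-fold, and 0.28 in polysomes. Yumm1.7 S had 1.61, 3.85 and 3.16 TPM, against 11.8, 20.6 and 16.1 TPM in P. Every Yumm1.7 S value lay below every P value, and the differences were -1.36, -1.94 and -0.51 relative to the median gene. As deposited, the A375 values were 0.996 in input, just under 2-fold, 1.49 in monosomes and 0.07 in polysomes. The Yumm1.7 values were -2.29, -2.15 and -2.04 as deposited, past 2-fold in all 3 kinds of library. The smaller polysome difference in Yumm1.7 was therefore seen relative to the median gene and not as deposited.

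The insulin receptor family stayed within 2-fold between S and P in both lines relative to the median gene, but not in every library as deposited. IGF1R, the receptor of insulin-like growth factors, had 17.9, 11.7 and 14.9 TPM in A375 S and 21.7, 8.19 and 32.0 TPM in A375 P. Its differences were -0.07, 0.43 and -0.84, within 2-fold and of mixed sign, with polysomes at -1.05 as deposited. Yumm1.7 S had 1.34, 2.63 and 1.93 TPM, against 6.51, 3.64 and 11.3 TPM in P, or -0.75, -0.14 and -0.54 relative to the median gene. Every Yumm1.7 S value lay below every P value. The input value was -1.09 with a pseudocount of 0.1 TPM, and the as deposited values were -1.68, -0.35 and -2.07.

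INSR, the insulin receptor, had 5.91, 3.67 and 5.30 TPM in A375 S and 3.31, 1.87 and 3.38 TPM in A375 P. The differences of 0.88, 0.66 and 0.73 were alike in the 3 kinds of library, and every S value exceeded every P value, though within 2-fold. With a pseudocount of 0.1 TPM the input difference was 1.04. Yumm1.7 S had 3.71, 6.20 and 2.17 TPM, against 5.82, 5.00 and 8.96 TPM in P. The Yumm1.7 input difference was 0.40 relative to the median gene and -0.53 as deposited, so its sign depends on the scaling; in polysomes it was -0.12 and -1.65.

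FGFR1, a receptor of fibroblast growth factors, lies on chromosome 8 (38400215 to 38468834, minus strand, GRCh38) and was lower in A375 S in all 3 kinds of library. A375 S had 2.18, 1.08 and 2.72 TPM, against 16.0, 4.30 and 18.7 TPM in P. Every S value lay below every P value, and the differences were -2.22, -1.39 and -2.19. It was the only receptor of the 8 compared in A375 past 2-fold in the same direction in input, monosomes and polysomes. Yumm1.7 S had 7.27, 12 and 9.71 TPM, against 27.2, 14.1 and 52.9 TPM in P. Again every S value lay below every P value, but relative to the median gene the differences were -0.83, -0.01 and -0.80, and as deposited -1.77, -0.22 and -2.33.

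**Figure D3:**
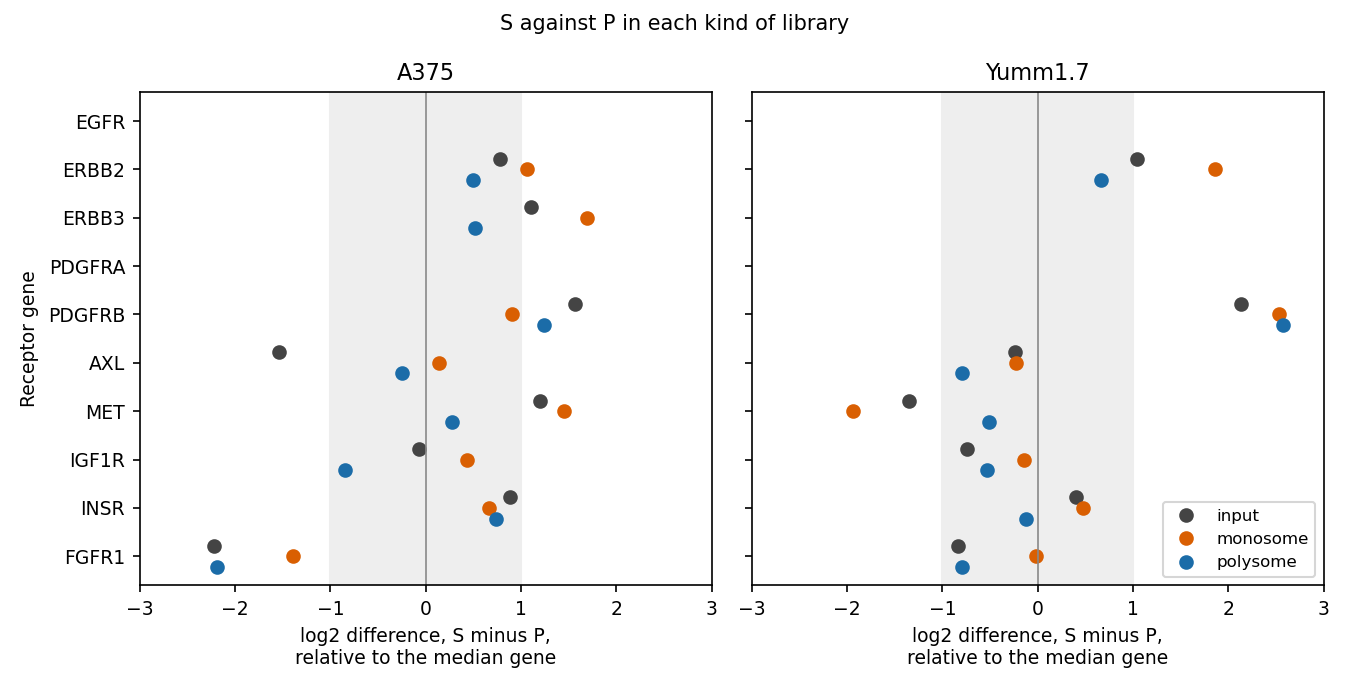
Difference of log2(TPM + 1), S minus P, relative to the median gene (horizontal axis) for each receptor (vertical axis) in input, monosome and polysome libraries of A375 (left) and Yumm1.7 (right); the grey band is within 2-fold, and EGFR, PDGFRA and, in Yumm1.7, ERBB3 were not compared. PDGFRB lies right of the band in all 3 Yumm1.7 libraries, FGFR1 left of it in all 3 A375 libraries, and MET on opposite sides in the 2 lines.

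The polysome library was next set against the monosome library of the same state, to show whether a receptor mRNA lay in the heavy or the light part of the gradient. The receptors have long coding sequences, between 2559 bases in FGFR1 and 4224 bases in MET in the longest GENCODE transcript of each human gene, longer than those of 80.5% to 93.7% of the 10912 A375 genes with a coding length (of 12638 compared), whose median was 1413 bases. The median gene lay at 0.67 in A375 S, 1.05 in A375 P, -0.46 in Yumm1.7 S and 0.91 in Yumm1.7 P, and the values that follow are relative to it.

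In A375 S, 1 of 8 receptors was at least 2-fold higher in polysomes, where 20.8% of all genes were, and 2 were lower, where 16.7% were; as deposited 1 was higher and 0 were lower. In A375 P, 1 was higher (19.1% of all genes) and 0 were lower (20.8%), or 5 higher and 0 lower as deposited. The medians of the receptors were -0.15 in S and 0.13 in P. ERBB2 was the most polysomal receptor in both A375 states, with 1.73 in S and 2.16 in P. It had 30.9 TPM in polysomes and 5.05 TPM in monosomes in S, and 25.2 and 1.83 TPM in P. At the other end, MET was at -1.50 in S and -0.46 in P, and ERBB3 at -1.06 in S and -0.02 in P. Both receptors had fewer TPM in polysomes than in monosomes in S, and more in P.

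The polysome-to-monosome ratio of S was then compared with that of P in A375. The ratio was at least 2-fold lower in S for 3 of 8 receptors, where 7.88% of all genes were, and higher for 0, where 13.1% were. The 3 were IGF1R (-1.23), ERBB3 (-1.13) and MET (-1.13). Of these, ERBB3 and MET were also past 2-fold higher in S input. PDGFRB (0.39) and INSR (0.11, but -0.18 as deposited) had a ratio above the median gene, and FGFR1 was at -0.76 (-1.05 as deposited). The values are differences within 4 single libraries. In A375, mitochondrially encoded RNA took 35.0% of the S monosome and 9.15% of the S polysome library, against 28.2% and 2.23% in P. How well the A375 fractions were separated was not tested.

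Mitochondrially encoded RNA took 21.5% of the Yumm1.7 S monosome library and 19.4% of the S polysome library, against 16.1% and 1.9% in P. By this share the S fractions differed less than the P fractions, and how well they were separated was not tested. In Yumm1.7 S, the receptors lay close to the median gene on the gradient, with 0 of 7 at least 2-fold higher in polysomes (13.2% of all genes) and 0 lower (10.9%). Their values ran between -0.72 for Insr and 0.24 for Met. In Yumm1.7 P, 1 was higher (14.0% of all genes) and 1 was lower (13.4%), or 4 higher and 0 lower as deposited. The higher one was Erbb2 at 1.13 and the lower one Met at -1.25. Erbb2 was therefore the most polysomal receptor in both P states, and it was at -0.02 in Yumm1.7 S. Comparing the ratios of S and P, Met was higher at 1.53 (17.3% of all genes were at least 2-fold higher) and Erbb2 lower at -1.10 (12.6% were lower). As deposited, 0 receptors were higher and 6 were lower, because the median gene itself was at -1.42. The Met ratio thus stood at 1.53 in Yumm1.7 and -1.13 in A375, or 0.11 and -1.42 as deposited.

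**Figure D4:**
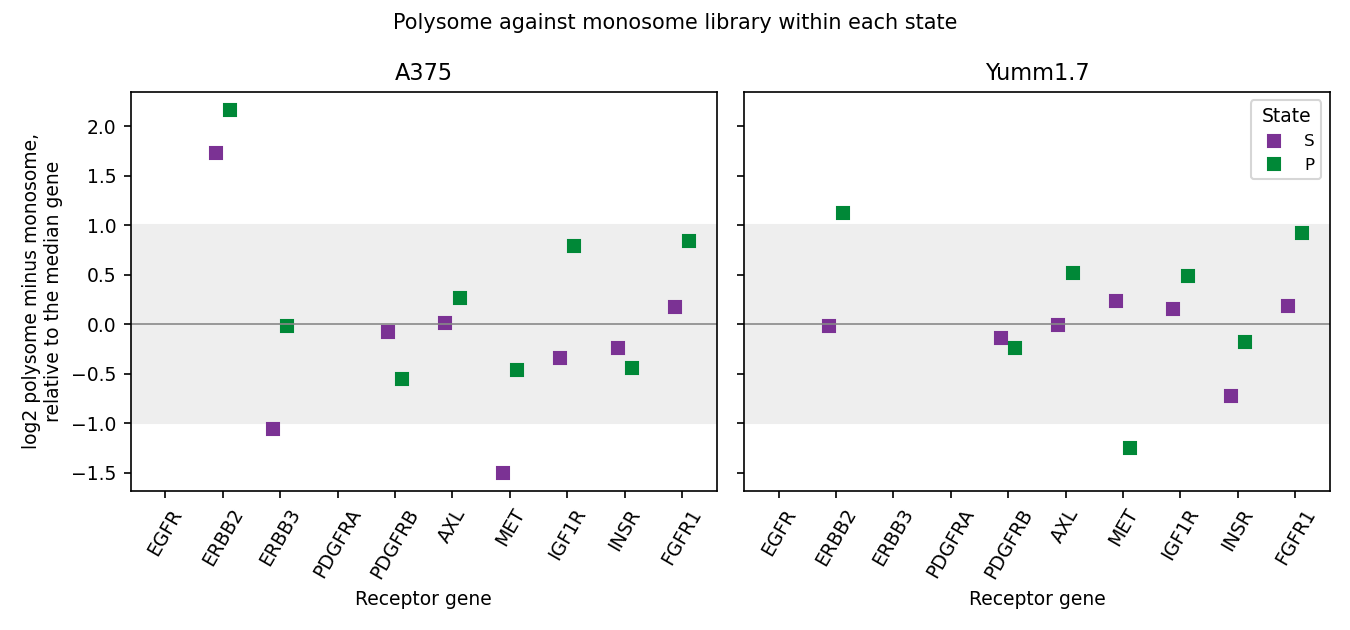
Polysome minus monosome difference of log2(TPM + 1), relative to the median gene (vertical axis), for each receptor (horizontal axis) in S and P of A375 (left) and Yumm1.7 (right); the grey band is within 2-fold. ERBB2 lies above the band in both A375 states and in Yumm1.7 P, MET and ERBB3 lie below it in A375 S, and MET lies below it in Yumm1.7 P.

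Other genes of receptor signalling were described from 6 lists (ligands, other receptor tyrosine kinases, co-receptors and sheddases, adaptors, inhibitors and turnover genes, and transcription factors linked to receptor levels). In input RNA, 34 of 125 such genes compared in A375 were at least 2-fold higher in S (27.2%, against 15.6% of all genes) and 16 were lower (12.8%, against 16.2%). In Yumm1.7 30 of 107 were higher (28.0%, against 23.1%) and 18 were lower (16.8%, against 22.3%), or 14 higher and 49 lower as deposited. As deposited, the A375 counts were 27 higher and 20 lower. The list medians relative to the median gene ran between -0.31 and 0.75 in A375 and between -0.52 and 1.02 in Yumm1.7. The same shares of all genes belong beside the input counts of each list below, 15.6% higher and 16.2% lower in A375. In Yumm1.7 they are 23.1% higher and 22.3% lower. Whether a list departs from these shares was not tested. The counts as deposited have no such share, and the Yumm1.7 median gene lay at -0.94 in input.

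Of 29 ligands, 14 were compared in A375, with 5 higher and 4 lower in S input (median 0.17), and 8 in Yumm1.7, with 1 higher and 3 lower (median 0.07). TGFA, a ligand of EGFR, had 26.2 TPM in A375 S input and 140.2 TPM in P input, a difference of -2.18. HBEGF, a ligand of EGFR and ERBB4, had 19.3 TPM in S and 8.18 TPM in P (1.35). FGF1, which binds all FGF receptors, had 18.7 TPM in S and 1.33 TPM in P (3.28), while its receptor FGFR1 was lower. PROS1, protein S, a ligand of the AXL family, had 81.7 TPM in S and 20.1 TPM in P (2.17). In Yumm1.7 input, Pros1 was also higher, with 12.3 TPM in S and 5.36 TPM in P (2.0). The EGFR ligands Areg (0.788 TPM in S and 16.3 TPM in P, -2.34) and Ereg (1.16 and 15.0 TPM, -1.95) were lower. Pdgfa, a ligand of the PDGF receptors, had 37.1 TPM in S and 42.7 TPM in P, or 0.74 relative to the median gene and -0.20 as deposited, both within 2-fold. Ligands were thus present in both lines for EGFR, whose own mRNA was under 1 TPM.

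Of 48 other receptor tyrosine kinases, 15 were compared in A375 (4 higher and 2 lower, median -0.31) and 11 in Yumm1.7 (6 higher and 3 lower, median 1.02, or 2 higher and 3 lower as deposited). DDR1, a collagen receptor, had 27.1 TPM in A375 S input and 1.35 TPM in P input (3.78). FGFR4 had 24.4 TPM in S and 7.56 TPM in P (1.77), against the lower FGFR1. EPHB3, a receptor of ephrins, was higher in both lines, with 15.7 and 4.76 TPM in A375 S and P input (1.73) and 22.4 and 2.37 TPM in Yumm1.7 S and P input (3.73). FLT1, a receptor of vascular endothelial growth factor, had 18.9 TPM in A375 S and 12 TPM in A375 P (0.82, within 2-fold), and 12.4 TPM in Yumm1.7 S and 5.92 TPM in Yumm1.7 P (1.89). Tyro3, of the AXL family, had 13.1 TPM in Yumm1.7 S and 6.74 TPM in P (1.80), and Epha2, another ephrin receptor, had 0.974 TPM in S and 20.6 TPM in P (-2.52). The as deposited differences of Flt1 and Tyro3 in Yumm1.7 were 0.95 and 0.87, under 2-fold.

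Co-receptors and sheddases, which present or release ligands, were higher in S input for 7 of 20 genes and lower for 2 in A375 (median 0.75), and higher for 10 of 20 and lower for 2 in Yumm1.7 (median 0.86). As deposited, 7 were higher and 4 lower in A375, and 6 higher and 7 lower in Yumm1.7. CD44, a co-receptor of MET, had 847 TPM in A375 S and 227 TPM in A375 P (2.09). The heparan sulfate proteoglycans GPC1 (127 TPM in S and 25.9 TPM in P, 2.45) and GPC6 (42.5 and 10.7 TPM, 2.09) were higher, and SDC1 was lower (1.32 and 17.6 TPM, -2.80). In Yumm1.7, the proteoglycan gene Gpc4 (98.0 TPM in S and 8.35 TPM in P, 4.34), the sorting receptor gene Sort1 (10.6 and 0.345 TPM, 4.04), the decoy FGF receptor gene Fgfrl1 (36.6 and 8.70 TPM, 2.89) and the metalloproteinase gene Adam15 (153.6 and 49.7 TPM, 2.55) were higher. In A375 input the same genes were at -1.67 (GPC4), 0.82 (SORT1), -0.86 (FGFRL1) and -0.38 (ADAM15).

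Adaptors and signal relays were near the median gene (median 0.31 in A375, 8 of 34 higher and 3 lower; 0.17 in Yumm1.7, 4 of 30 higher and 3 lower). As deposited, 1 was higher and 12 were lower in Yumm1.7. Members of the SHC family, which link receptors to GRB2, were among them in A375. SHC2 had 20.4 TPM in S and 0.276 TPM in P (4.27) and SHC4 had 30.1 and 3.94 TPM (2.85). IRS2, which binds IGF1R and INSR, had 84.1 TPM in S and 30.6 TPM in P (1.63), and GRB10, which restrains the same receptors, had 6.06 and 35.1 TPM (-2.15). In Yumm1.7 input, Plcg1, a phospholipase recruited by receptors, had 12.4 TPM in S and 8.23 TPM in P (1.48, or 0.54 as deposited). The adaptor gene Crk (6.53 and 42.9 TPM, -1.61) and the kinase gene Fyn (2.35 and 14.6 TPM, -1.28) were lower.

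Receptor inhibitors and turnover genes had a median of -0.17 in A375 (4 of 26 higher and 4 lower) and -0.52 in Yumm1.7 (3 of 24 higher and 5 lower). As deposited, 2 were higher and 6 lower in A375, and 1 higher and 17 lower in Yumm1.7. ERRFI1, an inhibitor of the ERBB kinases that the ERK pathway induces, was lower in both lines. It had 18.1 TPM in A375 S input and 85.7 TPM in A375 P input (-1.98), and 0.573 TPM in Yumm1.7 S input and 23.1 TPM in Yumm1.7 P input (-3.0). SOCS2, which marks signalling receptors for turnover, was higher in both, with 38.1 and 7.01 TPM in A375 S and P (2.49) and 12 and 3.38 TPM in Yumm1.7 S and P (2.51). In A375 the receptor phosphatase gene PTPRF was lower (5.84 TPM in S and 24.2 TPM in P, -1.68) and the docking protein gene DOK1 higher (35.8 and 14.0 TPM, 1.49). In Yumm1.7 the adaptor gene Cd2ap (1.37 and 16.0 TPM, -1.91) and the tyrosine phosphatase gene Ptpn2 (4.27 and 33.6 TPM, -1.78) were lower.

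Transcription factors linked to receptor levels in melanoma had a median of 0.73 in A375 (6 of 16 higher and 1 lower) and 0.31 in Yumm1.7 (6 of 14 higher and 2 lower). As deposited, 3 were higher and 1 was lower in A375, and 3 were higher and 6 lower in Yumm1.7. JUN, an AP-1 factor tied to EGFR and AXL levels, had 121 TPM in A375 S input and 4.00 TPM in A375 P input (4.81). FOXD3, which activates ERBB3 in melanoma cells, had 50.6 TPM in S and 5.77 TPM in P (3.13). FOSL2 was higher (18.1 and 2.32 TPM, 2.72) and FOSL1 lower (25.2 and 128 TPM, -2.11), both AP-1 genes. In Yumm1.7 Fosl1 was listed at 0 in S input and had 207 TPM in P input. Unlike in A375, Jun was below the median gene there, with 5.87 TPM in S and 22.0 TPM in P (-0.81, or -1.74 as deposited). Fosl2 had 6.93 and 5.45 TPM (1.23, or 0.30 as deposited). Sox9 (34.1 and 13.8 TPM, 2.18), Tead2 (11.4 and 4.25 TPM, 2.17) and Foxo4 (13.0 and 7.2 TPM, 1.71, or 0.77 as deposited) were higher.

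**Figure D5:**
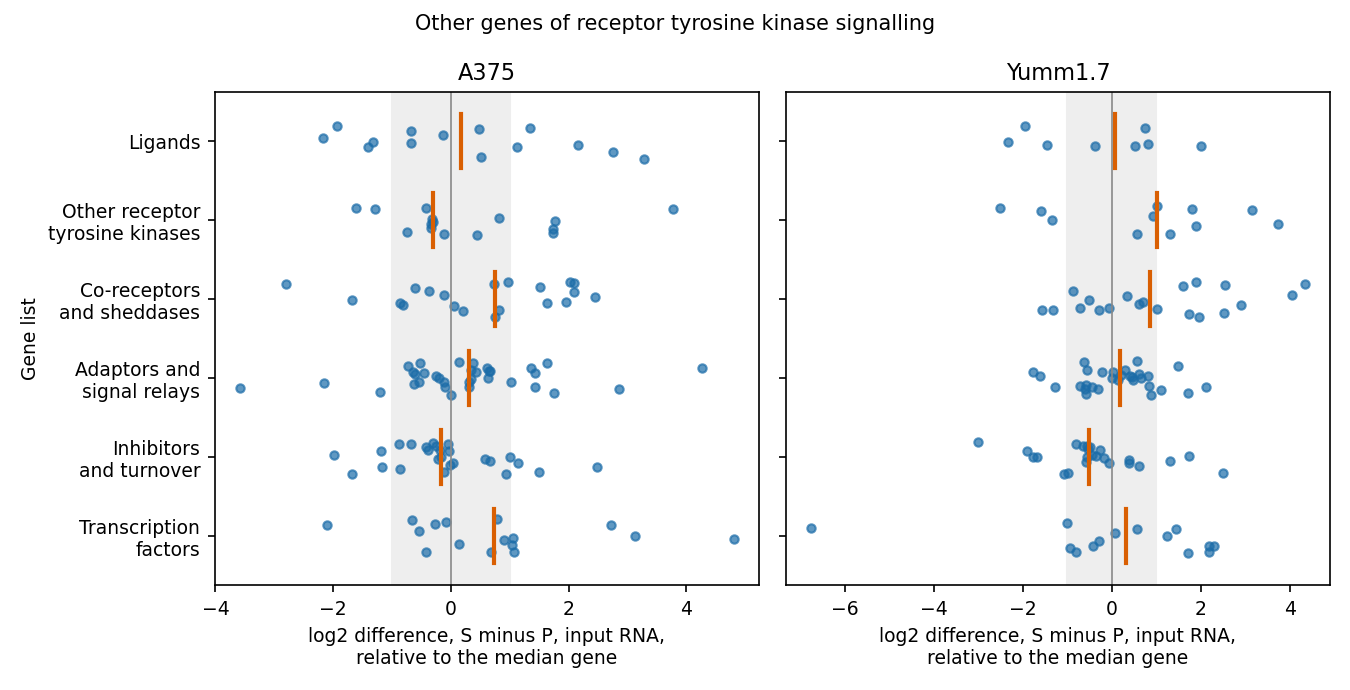
Difference of log2(TPM + 1), S minus P, in input RNA relative to the median gene (horizontal axis) for each gene compared (points, spread vertically for legibility) of 6 lists (vertical axis) in A375 (left) and Yumm1.7 (right); orange bars are list medians and the grey band is within 2-fold. The medians lie within the band for every list except the other receptor tyrosine kinases in Yumm1.7, at 1.02; the leftmost Yumm1.7 point is Fosl1, listed at 0 in S input, whose fold is not defined.

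For the 7 receptors compared in both lines, the genes with the most similar profile were taken over the 12 libraries by the root mean square difference of log2(TPM + 1), after each gene was centred on its own mean within each line. This compares how genes move between states and fractions, among 6101 or 6102 genes that average 5 TPM or more in each line, and the libraries share gradients and medians. The genes named are the closest by choice, so distances under the median follow from the rule and only give the scale. PDGFRB was most like DLGAP4 (0.24), NRP1 (0.28), which encodes a co-receptor of growth factors including platelet-derived growth factor, and MARVELD1 (0.29), against a median distance of 1.18. FGFR1 was most like EIF5A (0.22), a translation factor gene, KHSRP (0.24) and UCK2 (0.26), with a median distance of 0.97. MET was most like ANKRD13C (0.22), EPS15 (0.25), which takes part in receptor endocytosis, and XIAP (0.25), with a median distance of 1.02. AXL was most like LRRFIP1 (0.26), SRP72 (0.32) and NAA15 (0.32), and ERBB2 most like NRBP1 (0.19), QSOX1 (0.20) and NFE2L1 (0.24). IGF1R (CORO1C at 0.17, OXA1L at 0.18 and PPM1D at 0.19) and INSR (R3HDM2 at 0.18, IRF2BP2 at 0.18 and ANKRA2 at 0.18) had median distances of 0.69 and 0.77.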

How the data were processed

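Values are TPM, made by the authors from their reads and deposited as 1 table per cell line. Per the labels' protocols, poly-T beads drew mRNA from total RNA, and random hexamers primed the cDNA before PCR, so RNA without a poly(A) tail is under-represented. Per the submitters' processing notes the builds were GRCh38 (hg38) and GRCm38 (mm10). The aligner, the quantifier and how strand was treated were not given in the sources used here. No listed gene averages under 0.1 TPM in its line.

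Samples were grouped by their titles. Differences of log2(TPM + 1) were centred on the median gene with a mean of at least 1 TPM, in Python 3.11.15 with pandas 2.3.3; the calculation was tested on simulated data. With 1 library per group there is no test and no p-value. Receptors, gene lists and rules were chosen with earlier results of these data known. Of each list, up to 4 genes with the largest absolute input difference and a mean of at least 5 TPM per line were named, and for each receptor compared in both lines the 3 most alike genes. For 1 gene that this rule names, the result is not reported here. Marker lists are given by sum and range, with single markers named after their values were seen. Names of Yumm1.7 genes were matched in capitals, 1 marker by an older symbol. Coordinates and coding lengths are from GENCODE 29 (GRCh38); promoter windows of 250 bases are from RefSeq. Alternatives tried were a pseudocount of 0.1 TPM, no filter or a mean of at least 5 TPM, values as deposited, centring on genes of at least 10 TPM, and 1.5-fold.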

Additional observations from a re-analysis of the deposited data

Results flagged for a closer look

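MET differed past 2-fold in opposite directions in the 2 lines. In input RNA, S minus P relative to the median gene was 1.19 in A375 (31.4 TPM in S and 15.3 TPM in P) and -1.36 in Yumm1.7 (1.61 TPM in S and 11.8 TPM in P). In the monosome libraries it was 1.45 in A375 (28.7 and 9.59 TPM) and -1.94 in Yumm1.7 (3.85 and 20.6 TPM). The difference between the lines was not tested, since each group has 1 library, and in the polysome libraries the values were 0.28 in A375 and -0.51 in Yumm1.7, or 0.07 and -2.04 as deposited.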

How the results depend on the processing

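No paired analysis was possible because each group has 1 library, and no library could be left out. Of the single values recomputed under 5 alternatives, 0 that were past 2-fold relative to the median gene changed sign. Smaller values could change sign. The Yumm1.7 Pdgfrb ratio of S against P was 0.14 relative to the median gene and -1.28 as deposited. Counts of receptors past 2-fold in either direction moved by more than 1.5 times as follows, with the cause not tested beyond the construction of each alternative. As deposited, without centring, the count was 3 in place of 5 in A375 input, 1 in place of 3 for polysome against monosome in A375 S and 5 in place of 1 in A375 P. In Yumm1.7 it was 5 in place of 3 in input, 6 in place of 1 in polysomes, 1 in place of 0 for polysome against monosome in S, 4 in place of 2 in P and 6 in place of 2 for the ratio of S against P. Other pathway genes in Yumm1.7 input then numbered 14 higher and 49 lower, in place of 30 and 18. With no filter on low values, 3 receptors in place of 1 were counted for polysome against monosome in A375 P and 3 in place of 1 in Yumm1.7 polysomes. With a mean of at least 5 TPM, which leaves 6 receptors in A375 and 5 in Yumm1.7, the count was 1 in place of 2 in A375 polysomes, for polysome against monosome in Yumm1.7 P and for the Yumm1.7 ratio, and 9 in place of 16 other pathway genes were lower in A375 input. Centring on genes of at least 10 TPM gave 1 in place of 2 for polysome against monosome in Yumm1.7 P and for the Yumm1.7 ratio, where Erbb2 came to 0.90 and -0.89. At 1.5-fold the count was 4 in A375 polysomes, 3 for polysome against monosome in A375 P, 5 in Yumm1.7 input, 4 in Yumm1.7 polysomes and 1 for polysome against monosome in Yumm1.7 S, and the lower pathway genes numbered 30 in A375 and 28 in Yumm1.7. The pseudocount of 0.1 TPM moved no count by more than 1.5 times. TPM keeps no depth, so no counting error bounds the low receptors (EGFR, PDGFRA, and PDGFRB in A375).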
